A study of Rattus norvegicus with 8 samples.

Results

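Ovarian granulosa cells (GCs) stimulated with FSH for 24 hr. were compared with unstimulated control GCs, gene by gene, over the 13915 genes that carry a symbol among 31099 probe sets. The FSH group (n = 3 arrays) consisted of primary GCs of immature Sprague-Dawley rats, 24 days old, transduced with a lentivirus for the fluorescent protein EGFP and given FSH at 100 ng/ml. The EGFP group (n = 2) received the same virus and no FSH. Both groups thus carried the virus, and both were cultured with testosterone, an androgen from which GCs make estrogen. A further group of the series (n = 3), PKA-CQR, expressed an active mutant of the PKA catalytic subunit without FSH and is used here only to estimate the spread and at a few genes. The whole series holds 8 arrays. GCs of several ovaries are pooled in a culture, and on bulk RNA a smaller number of cells of a type and less RNA per cell cannot be told apart.

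FSH is the pituitary hormone that carries ovarian follicles toward ovulation. In GCs its receptor couples to adenylyl cyclase, and cAMP activates PKA, which acts on transcription through CREB and other factors. The differentiated GC makes estrogen from androgen, gains the capacity to make progesterone from cholesterol, secretes inhibins and acquires the receptor for LH. The cholesterol for this comes from lipoproteins and from synthesis in the cell.

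Values are log2 signals of one probe set per gene, and a fold change is the difference of mean log2 signals, FSH over EGFP. Rises and falls are changes with adjusted p under 0.05 (limma over all 8 arrays, Benjamini-Hochberg over all 13915 genes). By this test 13.4% of genes rose and 12.1% fell, and the median log2 fold change of all genes was 0.06. The count of each gene list below is to be read beside these shares. Of the 1868 genes that rose, 384 rose at least 2-fold and 30 at least 8-fold, and of the 1680 that fell, 462 fell at least 2-fold and 36 at least 8-fold. At all 3548 called genes the FSH and EGFP arrays did not overlap, so an absence of overlap adds nothing to a call. Array medians lay between 8.37 and 8.44, and arrays correlated at 0.993 to 0.997 within FSH, at 0.995 within EGFP and at 0.966 to 0.975 between the groups. RNA integrity was read from beta-actin, whose 3′ probe set exceeds its 5′ probe set by more in degraded RNA. The log2 excess was 1.30, 1.45 and 1.88 in FSH and 1.02 and 1.53 in EGFP arrays. With this excess as a covariate 2438 genes rose and 1936 fell.

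**Figure D1:**
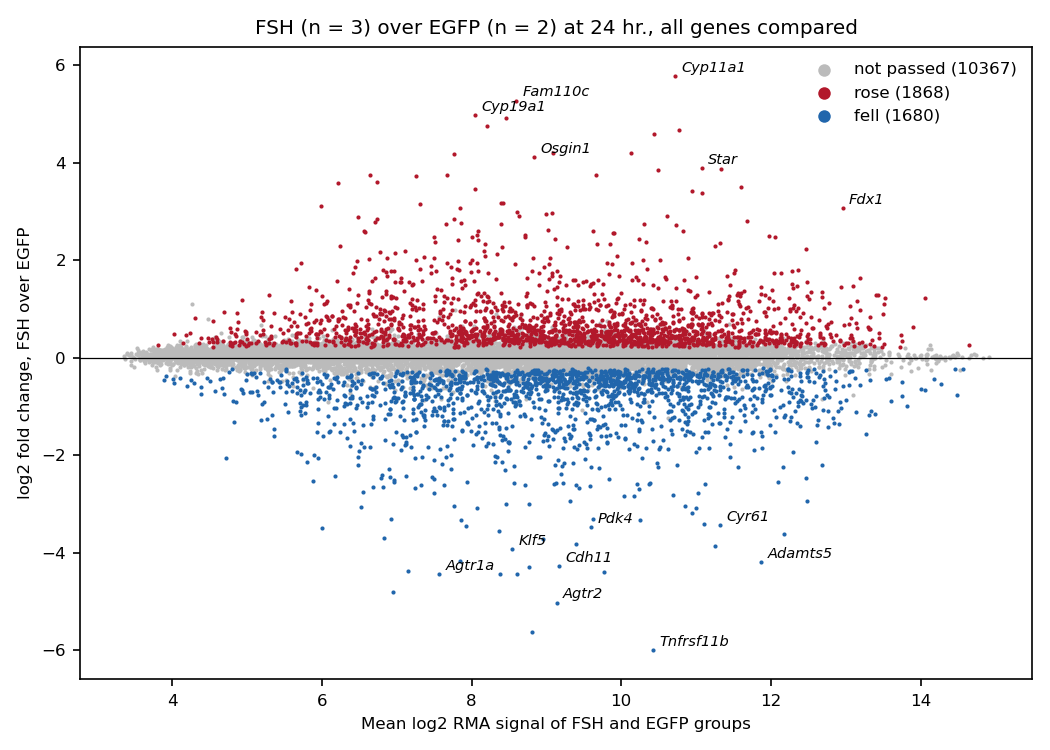
Each point is one of the 13915 genes, with its mean log2 signal on the x axis and its log2 fold change, FSH (n = 3 arrays) over EGFP (n = 2), on the y axis. The 1868 genes that rose are red, the 1680 that fell are blue and the rest are grey, and *Cyp11a1* stands highest, at 5.78.

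The control arrays were not equally far from FSH. Of the 384 genes that rose at least 2-fold, EGFP replicate 2 was the nearer to FSH at 263, and of the 462 that fell at least 2-fold it was the nearer at 372. The median log2 difference of the risen genes was 1.51 against EGFP replicate 1 and 1.40 against replicate 2, and that of the fallen genes was -1.61 and -1.39. Without EGFP replicate 1 the calls numbered 1182 risen and 1090 fallen, the lowest of any single array left out, and without EGFP replicate 2 they numbered 1320 and 1361. With the replicate number as a block, since each of the 3 groups of GCs was split over the treatments, 3786 genes passed, of which 3296 also passed without it.

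The labelled cell type was checked on GC markers. *Foxl2*, a transcription factor that maintains GC identity, was at 12.99, 12.95 and 13.13 in FSH and 12.94 and 13.17 in EGFP arrays, and did not pass the test (adjusted p = 0.871). Among 17 measured GC markers 10 rose and 1 fell (2 fell without FSH replicate 1), and their mean log2 signal was 11.42, 11.19 and 11.36 in FSH and 10.37 and 10.42 in EGFP arrays. The marker that fell was *Wt1* (log2 -0.53, adjusted p = 0.00242). Several that rose, such as *Cyp19a1*, *Inha* and *Inhba*, belong to the response to FSH, so the higher mean does not check the cell type. The 4 genes taken to mark FSH-stimulated GCs, *Cyp11a1*, *Scarb1*, *Lhcgr* and *Star*, all rose. *Cyp11a1*, the enzyme that cleaves the cholesterol side chain, had log2 signals of 13.66, 13.70 and 13.47 in FSH and 7.28 and 8.38 in EGFP arrays, a 55.0-fold rise (log2 5.78, SE 0.27, adjusted p = 3.29e-06). *Lhcgr*, the LH receptor, was at 10.82, 9.95 and 10.97 in FSH and 5.75 and 5.92 in EGFP arrays (26.8-fold, adjusted p = 1.07e-05). All FSH arrays lay far above both EGFP arrays for these genes. *Star*, which moves cholesterol into mitochondria, was at 13.23, 13.24 and 12.58 in FSH and 8.58 and 9.68 in EGFP arrays (14.8-fold, SE 0.35 on the log2 scale, adjusted p = 7.36e-05), and *Scarb1*, the HDL receptor, was at 13.15, 13.13 and 13.01 in FSH and 8.27 and 8.60 in EGFP arrays (25.3-fold).

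Markers of other ovarian cell types were checked beside these. The mean log2 signal of 15 endothelial markers was 5.79, 5.82 and 5.95 in FSH and 5.79 and 5.90 in EGFP arrays, and 0 of them rose and 1 fell, the VEGF receptor gene *Kdr* (adjusted p = 0.054 without EGFP replicate 1). That of 23 leukocyte markers was 6.36, 6.40 and 6.29 in FSH and 6.17 and 6.13 in EGFP arrays, with 5 risen and 1 fallen. The rises numbered 2 without EGFP replicate 1, 1 without EGFP replicate 2, 3 without FSH replicate 1 and 2 without FSH replicate 2. The common leukocyte antigen gene *Ptprc* was at 4.41, 4.60 and 4.92 in FSH and 4.49 and 4.74 in EGFP arrays, and the macrophage gene *Emr1* at 3.73, 3.80 and 3.85 in FSH and 3.79 and 3.85 in EGFP arrays. For both genes the groups overlapped. *Cd68*, a lysosomal protein rich in macrophages, rose 1.61-fold. Of 15 smooth muscle and pericyte markers 0 rose and 9 fell, and their mean was 6.57, 6.57 and 6.61 in FSH and 7.65 and 7.29 in EGFP arrays. Smooth muscle myosin, *Myh11* (log2 -0.51, adjusted p = 0.093), and desmin, *Des* (log2 0.06, adjusted p = 0.684), did not pass. With arrays weighted in limma, *Myh11* passed. *Mcam*, a pericyte adhesion molecule, fell 5.22-fold. Among 8 oocyte markers 1 rose, *Sohlh1* (log2 0.31, adjusted p = 0.011), and 1 fell, *Zp2* (log2 -0.61, adjusted p = 0.000955). The oocyte gene *Gdf9* was at 7.63, 7.23 and 6.18 in FSH and 7.23 and 5.97 in EGFP arrays, so its replicates spread over more than the difference between the groups. Surface epithelium markers (11 measured) had 2 risen, or 1 without FSH replicate 2, and 0 fallen. Erythroid markers (6 measured) had 2 risen, or 1 without FSH replicate 3, and 1 fallen. Of 16 theca and stroma markers 1 rose and 4 fell, and the part of these cell types in the results was not tested.

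**Figure D2:**
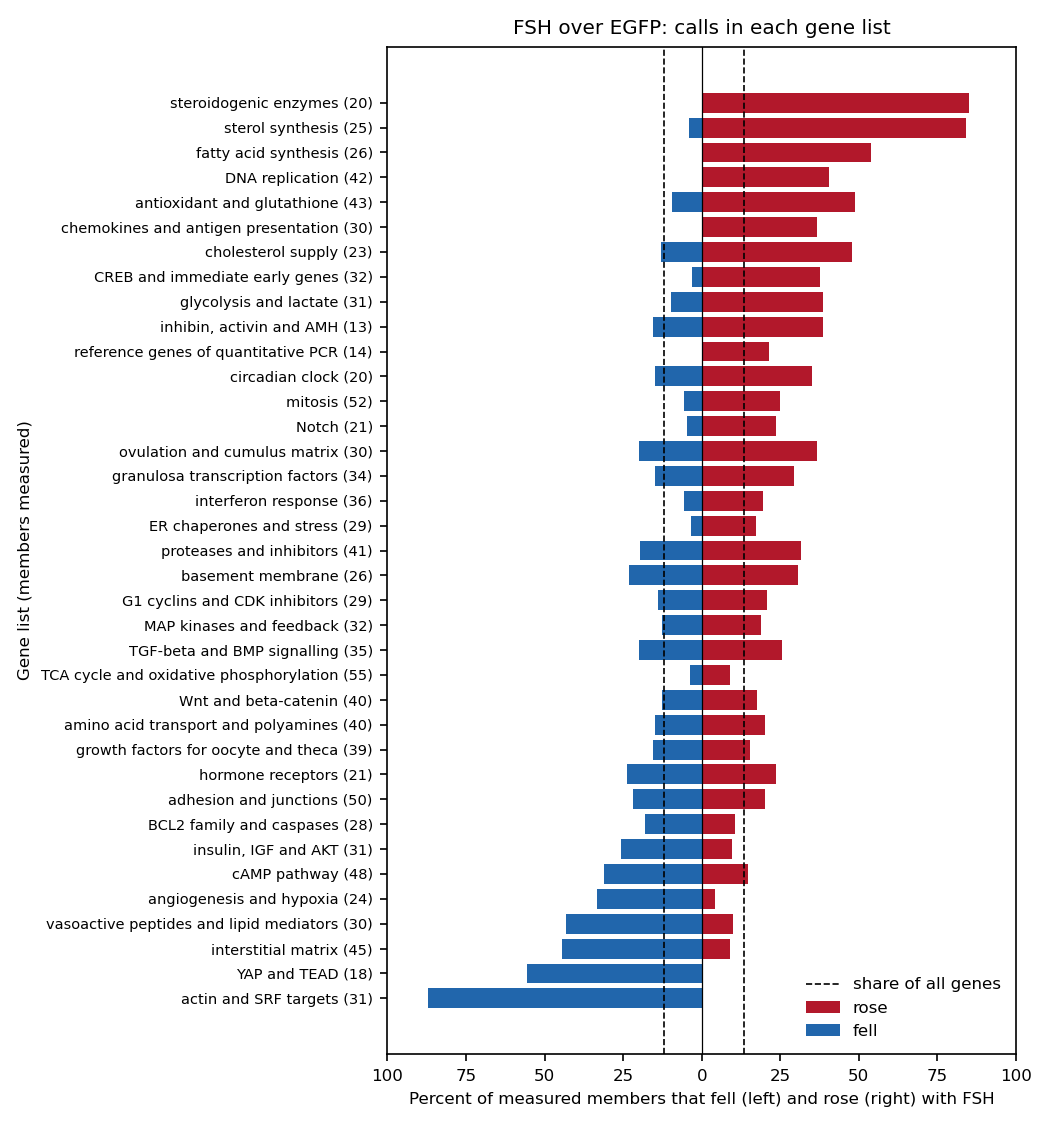
For each of 37 gene lists, bars give the percent of measured members that fell (left, blue) and rose (right, red) with FSH over EGFP, with the number measured in brackets and dashed lines at the share of all genes (13.4% rose, 12.1% fell). Steroidogenic enzymes (85.0% rose) and sterol synthesis (84.0% rose) stand at the top, and actin and SRF targets (87.1% fell) at the bottom.

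Steroid synthesis was raised at most of its steps, with 17 of 20 measured enzymes up and 0 down, a median log2 fold change of 0.73. The 4 members of the pregnenolone and progesterone branch all rose, with a median of 2.90. *Fdx1*, the ferredoxin that passes electrons to *Cyp11a1*, was at 14.43, 14.49 and 14.56 in FSH and 11.20 and 11.64 in EGFP arrays, an 8.41-fold rise (SE 0.12 on the log2 scale, adjusted p = 1.83e-06). All 5 members of the estrogen branch rose as well. *Cyp19a1*, the aromatase that turns androgen to estrogen, was at 10.72, 9.86 and 11.04 in FSH and 4.84 and 6.29 in EGFP arrays (31.5-fold, adjusted p = 6.32e-05). Its control arrays differed by more than 1 log2 unit, so the fold was 19.0 without EGFP replicate 1 and 52.0 without EGFP replicate 2, both past the threshold. *Hsd17b1*, which reduces estrone to estradiol, rose 3.04-fold and *Hsd17b7*, which can do the same and also acts in cholesterol synthesis, rose 2.83-fold. *Hsd11b1*, which regenerates active glucocorticoid, was at 11.13, 10.93 and 10.71 in FSH and 8.32 and 8.34 in EGFP arrays, or 6.04-fold (adjusted p = 1.33e-05). No enzyme of the list fell, and leaving out any single array left 13 to 17 of the 20 risen.

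**Figure D3:**
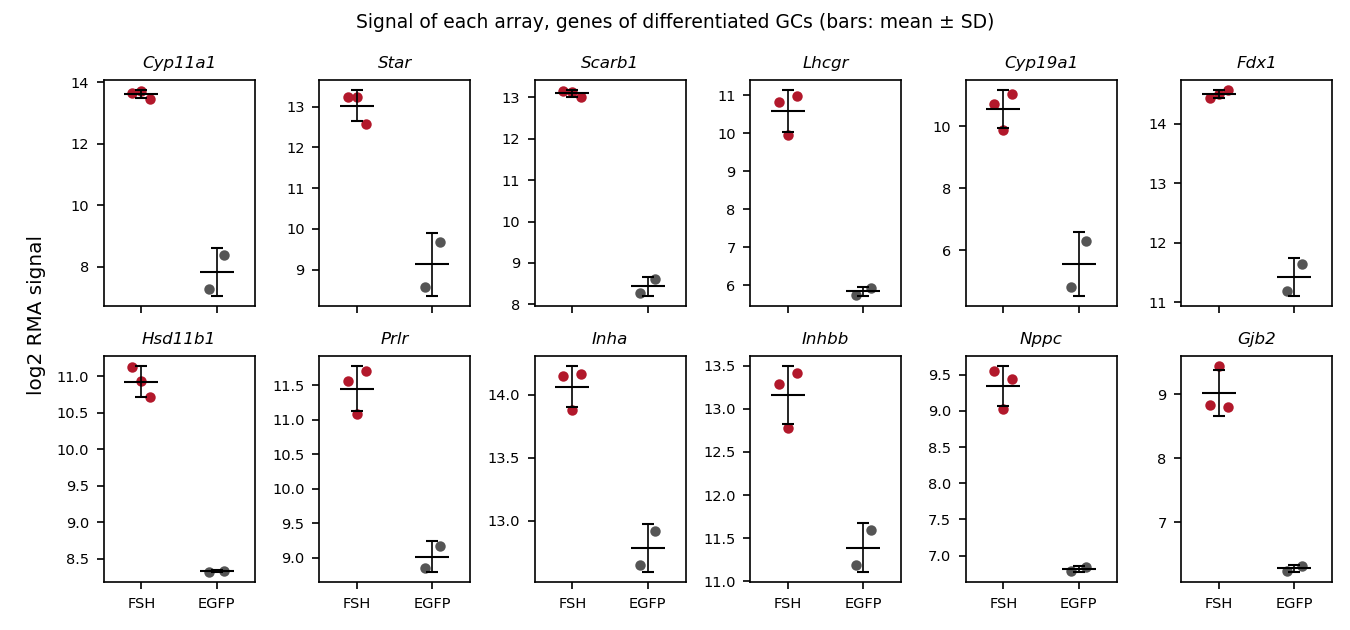
Points are the log2 RMA signals of single arrays, FSH (3 red points) left of EGFP (2 grey points), for 12 genes, with bars at mean ± SD. Each panel has its own y axis, and no FSH array of any panel falls to an EGFP array. EGFP replicate 2 is the higher control in most panels, with a wide gap at *Cyp11a1*, *Star* and *Cyp19a1*.

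Of 23 measured genes of cholesterol supply 11 rose and 3 fell. Beside *Scarb1*, *Soat1*, the enzyme that esterifies cholesterol for storage, rose 2.59-fold, *Stard4*, a cytosolic sterol carrier, rose 2.47-fold, and *Abca1*, the efflux pump, rose 2.29-fold. *Nr1h3*, the oxysterol receptor LXR alpha, was at 7.27, 7.0 and 7.12 in FSH and 5.71 and 5.97 in EGFP arrays, a 2.44-fold rise. *Vldlr*, a very low density lipoprotein receptor, fell 2.25-fold. *Lipa*, the lysosomal lipase that frees cholesterol from lipoprotein esters, was at 11.52, 11.62 and 11.90 in FSH and 13.02 and 13 in EGFP arrays, 2.52-fold lower (adjusted p = 0.00011), and the groups did not overlap.

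Of 25 measured sterol synthesis genes 21 rose and 1 fell, and the median log2 fold change was 1.07. All 10 genes from squalene to cholesterol rose (median 1.11), as did 7 of 9 mevalonate steps (median 1.08). *Idi1*, the isopentenyl isomerase, was at 13.94, 13.95 and 13.63 in FSH and 12.30 and 12.44 in EGFP arrays (2.77-fold, SE 0.11 on the log2 scale, adjusted p = 3.47e-05), and *Dhcr7*, the last reductase of the pathway, at 13.20, 13.25 and 13.31 in FSH and 11.40 and 12.01 in EGFP arrays (2.92-fold). The spread among FSH arrays of both genes was small beside the step between the groups. *Insig1*, which holds the transcription factors of the pathway inactive when sterols are abundant, rose 1.52-fold. *Ggps1*, which leads away to geranylgeranyl groups, was the single fall, 1.26-fold (adjusted p = 0.0347), but it did not pass without EGFP replicate 1 (adjusted p = 0.105), without EGFP replicate 2 (0.15), without FSH replicate 1 (0.085), without FSH replicate 2 (0.104) and without PKA-CQR replicate 2 (0.0563).

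**Figure D4:**
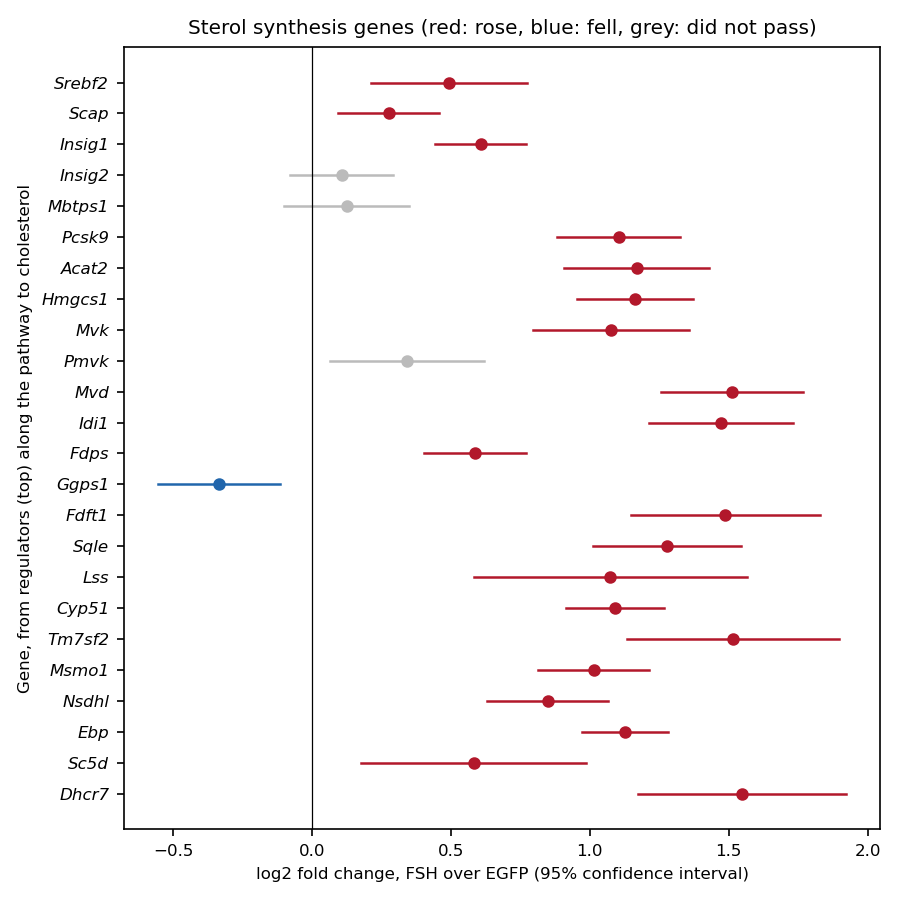
Points are log2 fold changes, FSH over EGFP, of 24 of the 25 measured sterol synthesis genes in pathway order, with lines at the 95% confidence interval, red for genes that rose, blue for those that fell and grey for those that did not pass. All 10 genes from squalene to cholesterol lie to the right of 0, between 0.58 and 1.55, and *Ggps1* lies to the left at -0.33.

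Promoters of the sterol genes were read as sequence for motifs. RefSeq promoters (build GRCr8, 250 bases before to 50 after each transcription start) were found for 9996 of the 13915 genes, and each motif was searched on both strands. The CCAAT box (CCAAT, bound by NF-Y), with its reverse complement, was present in 15 of the 20 sterol synthesis promoters, or 75.0%, against 37.3% of all 9996. It was also in 9 of 14 steroidogenic enzyme promoters and in 13 of 25 of actin and SRF targets, which mostly fell. For CREB-related and immediate early genes it was in 8 of 25, and for vasoactive peptides and lipid mediators in 9 of 23. Among genes changed at least 2-fold, 40.5% of risen and 30.8% of fallen promoters had it. The rat *Idi1* and *Hmgcs1* promoters are printed as examples, with each match in capitals (ATTGG is CCAAT on the other strand).
Idi1 (chr17:66547475-66547774, minus strand): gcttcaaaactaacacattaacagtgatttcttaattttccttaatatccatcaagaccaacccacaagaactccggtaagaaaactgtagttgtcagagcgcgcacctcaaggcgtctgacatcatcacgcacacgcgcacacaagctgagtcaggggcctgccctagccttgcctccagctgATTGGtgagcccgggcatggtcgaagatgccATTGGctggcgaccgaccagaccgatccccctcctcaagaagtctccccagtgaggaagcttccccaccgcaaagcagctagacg
Hmgcs1 (chr2:53382054-53382353, plus strand): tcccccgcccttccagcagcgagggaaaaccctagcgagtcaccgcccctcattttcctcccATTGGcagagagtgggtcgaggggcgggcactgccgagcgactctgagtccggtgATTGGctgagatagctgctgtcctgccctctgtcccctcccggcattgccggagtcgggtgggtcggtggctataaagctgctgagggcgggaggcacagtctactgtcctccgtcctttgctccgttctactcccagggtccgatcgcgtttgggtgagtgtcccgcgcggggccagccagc
The *Idi1* matches start at -66 and -35 from the transcription start, and those of *Hmgcs1*, the cytosolic HMG-CoA synthase, at -188 and -133. A match is a sequence description and does not show binding. The sterol regulatory element, searched as TCACNCCAC on both strands, was in 0 of these 20 promoters and in 1.12% of all, and other spellings of it were not searched.

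Fatty acid synthesis moved in the same direction, with 14 of 26 measured genes up and 0 down (median 0.52). *Srebf1*, the transcription factor of the pathway, was at 10.82, 10.82 and 11.03 in FSH and 9.61 and 9.80 in EGFP arrays (2.28-fold, adjusted p = 0.000126). *Fasn*, fatty acid synthase, rose 2.13-fold, *Scd1*, a delta-9 desaturase, rose 18.2-fold, *Fads2*, a delta-6 desaturase, rose 2.50-fold and *Acsl3*, an acyl-CoA synthetase of lipid droplets, rose 2.13-fold. None of the 26 fell by the test.

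Receptors and hormones of the GC changed in both directions. Of 21 measured hormone receptors 5 rose and 5 fell, with a median of 0.04. *Prlr*, the prolactin receptor, was at 11.56, 11.08 and 11.70 in FSH and 8.86 and 9.17 in EGFP arrays (5.39-fold, adjusted p = 3.03e-05). *Pgr*, the progesterone receptor, was dim, at 5.83, 5.92 and 6.12 in FSH and 5.13 and 5.19 in EGFP arrays, and rose 1.74-fold, without overlap. Of the falls, *Nr3c1*, the glucocorticoid receptor, was at 9.51, 9.44 and 9.42 in FSH and 10.27 and 10.23 in EGFP arrays (1.73-fold lower, adjusted p = 5.74e-05) and *Nr3c2*, the mineralocorticoid receptor, fell 1.77-fold. The growth hormone receptor gene *Ghr* fell 1.89-fold. Estrogen receptor beta, *Esr2*, did not pass (log2 fold change 0.23, adjusted p = 0.454).

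Of 13 measured genes of inhibin, activin and AMH 5 rose and 2 fell, or 1 fell without EGFP replicate 1. The subunits of inhibin were among the rises. *Inhbb*, the beta B subunit, was at 13.29, 12.78 and 13.41 in FSH and 11.19 and 11.59 in EGFP arrays (3.41-fold, adjusted p = 0.000212), *Inhba*, the beta A subunit, rose 2.73-fold and *Inha*, the alpha subunit, rose 2.43-fold. *Fst*, follistatin, which binds activin, rose 1.78-fold, whereas *Fstl1*, a follistatin-like glycoprotein, fell 2.12-fold. *Amhr2*, the receptor of anti-Müllerian hormone, rose 1.91-fold (adjusted p = 0.000934), while its ligand *Amh* missed the threshold (log2 0.30, adjusted p = 0.0514).

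Of 35 TGF-beta and BMP signalling genes 9 rose and 7 fell, and 4 fell without EGFP replicate 1 and likewise without FSH replicate 3. The rises were mostly among the targets, where 6 of 7 rose (median 1.23), and of 16 ligands and antagonists 2 rose and 5 fell. *Id4*, *Id1*, *Id2* and *Id3*, inhibitors of basic helix-loop-helix factors, rose 6.14-fold, 2.85-fold, 2.34-fold and 1.86-fold, and *Id4* was at 10.40, 10.54 and 10.06 in FSH and 7.81 and 7.62 in EGFP arrays. *Tgfb2*, a TGF-beta ligand, was at 8.22, 8.77 and 8.88 in FSH and 11.57 and 11.35 in EGFP arrays (7.15-fold lower, adjusted p = 1.20e-05), and the groups did not overlap. *Bmp4* fell 5.55-fold and *Bmp2* fell 2.04-fold.

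Of 48 measured members of the cAMP pathway 7 rose and 15 fell, and of 13 anchoring proteins and other effectors 1 rose and 7 fell (median -0.47). Without EGFP replicate 2 the pathway's rises numbered 4. *Rgs2*, a GTPase activator that quenches G protein signals, was at 13.36, 13.31 and 13.12 in FSH and 11.37 and 11.56 in EGFP arrays (3.48-fold, adjusted p = 2.00e-05). *Akap12*, a PKA anchoring protein, was at 7.52, 7.98 and 8.04 in FSH and 11.24 and 10.33 in EGFP arrays (7.67-fold lower, adjusted p = 5.62e-05). FSH arrays were above EGFP arrays for the first and below them for the second. *Pkia* and *Pkig*, inhibitors of PKA catalytic subunits, fell 3.00-fold and 2.44-fold. *Pde4b*, of the phosphodiesterases that break down cAMP, rose 18.2-fold, among the 15 largest rises. *Prkar2b*, a PKA regulatory subunit, rose 1.55-fold, and *Prkaca*, the main catalytic subunit, did not pass (adjusted p = 0.616).

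Of 32 CREB-related and immediate early genes 12 rose and 1 fell, while 2 fell without EGFP replicate 2 and 0 without EGFP replicate 1, FSH replicate 1, PKA-CQR replicate 2 or PKA-CQR replicate 3. *Crem*, a CREB-family factor, was at 10.74, 10.62 and 10.74 in FSH and 9.02 and 8.94 in EGFP arrays (3.30-fold, adjusted p = 3.30e-06), *Nr4a1*, an orphan nuclear receptor, at 9.41, 9.52 and 9.75 in FSH and 7.82 and 8.03 in EGFP arrays (3.11-fold) and *Sik1*, a salt-inducible kinase, rose 2.28-fold. *Fos* and *Egr1*, whose response to hormones is early and transient in most cells, did not pass at 24 hr. (adjusted p = 0.659 and 0.318). *Atf3*, a stress-induced factor and the only fall, was at 6.12, 6.77 and 7.41 in FSH and 7.76 and 8.13 in EGFP arrays with an adjusted p just under 0.05. This call was lost without either EGFP array, FSH replicate 1 or 2, or PKA-CQR replicate 2 or 3, at adjusted p-values of 0.0619 to 0.215.

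Promoter motifs for this group were also read. The full cAMP response element (CRE), TGACGTCA, was in 4 of 25 promoters of the list, or 16%, against 2.86% of all 9996, and the half-site TGACG, searched on both strands and also contained in the full element, in 17 of 25, or 68.0%, against 29.7% of all. The *Crem*, *Nr4a1* and *Areg* promoters follow, with the half-site in capitals in the first and second (CGTCA is TGACG on the other strand) and the full element in the third. *Areg*, an EGF-like factor, belongs to the list of ovulation genes and rose 3.78-fold.
Crem (chr17:58933816-58934115, plus strand): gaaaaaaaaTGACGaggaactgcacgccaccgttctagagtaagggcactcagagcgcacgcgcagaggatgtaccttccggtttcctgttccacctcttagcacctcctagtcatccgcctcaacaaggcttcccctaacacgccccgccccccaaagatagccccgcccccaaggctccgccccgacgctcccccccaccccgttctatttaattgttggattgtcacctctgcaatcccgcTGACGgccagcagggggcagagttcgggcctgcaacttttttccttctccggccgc
Nr4a1 (chr7:134259888-134260187, plus strand): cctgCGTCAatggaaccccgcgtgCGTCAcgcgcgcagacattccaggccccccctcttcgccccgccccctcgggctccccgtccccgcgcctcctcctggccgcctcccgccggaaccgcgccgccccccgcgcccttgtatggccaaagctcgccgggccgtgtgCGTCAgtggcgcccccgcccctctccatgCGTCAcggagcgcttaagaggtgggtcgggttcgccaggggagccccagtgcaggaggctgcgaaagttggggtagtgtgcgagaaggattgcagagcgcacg
Areg (chr14:17265592-17265891, minus strand): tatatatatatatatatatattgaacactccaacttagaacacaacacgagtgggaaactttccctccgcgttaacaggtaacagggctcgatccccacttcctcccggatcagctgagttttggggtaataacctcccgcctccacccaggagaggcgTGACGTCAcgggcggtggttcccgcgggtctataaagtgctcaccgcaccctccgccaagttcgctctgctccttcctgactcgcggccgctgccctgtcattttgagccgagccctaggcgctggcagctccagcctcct
Over all genes that rose at least 2-fold, the full element was in 2.15% of 279 promoters, and over those that fell at least 2-fold in 1.27% of 315. The half-site was in 74 of the 279 risen, or 26.5%, and in 66 of the 315 fallen. By list, it was in 10 of 20 sterol synthesis promoters and 3 of 14 of steroidogenic enzymes. For actin and SRF targets it was in 6 of 25, and for vasoactive peptides and lipid mediators in 7 of 23. The SF-1 site, CAAGGTCA, was in 2 of the 279 risen and 0 of the 315 fallen, against 0.88% of all, and the CArG box of SRF was in 1.08% and 3.17%, against 1.35%. These shares are descriptions.

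Genes of ovulation and the cumulus matrix moved both ways, with 11 of 30 up and 6 down. *Tnfaip6*, which cross-links hyaluronan in the matrix, was at 10.98, 10.90 and 10.88 in FSH and 5.89 and 6.11 in EGFP arrays (30.2-fold, SE 0.16 on the log2 scale, adjusted p = 6.13e-07). *Ptgs2*, the inducible cyclooxygenase, was at 8.50, 7.98 and 9.13 in FSH and 4.97 and 4.91 in EGFP arrays (12.1-fold, adjusted p = 2.90e-05). The 3 FSH arrays of *Ptgs2* spread over more than 1 log2 unit, all above EGFP. Prostaglandin genes moved both ways. *Pla2g4a*, which frees arachidonate, rose 4.01-fold and *Hpgd*, which inactivates prostaglandins, rose 4.14-fold. *Ptges*, the prostaglandin E synthase, fell 2.94-fold and the receptor *Ptger3* fell 5.45-fold. *Hbegf*, an EGF-like factor, was at 6.04, 6.15 and 5.88 in FSH and 9.09 and 8.17 in EGFP arrays (6.09-fold lower).

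Among 34 transcription factors of GCs, 10 rose and 5 fell. *Nr5a1*, the steroidogenic factor SF-1, was at 10.48, 10.35 and 10.88 in FSH and 9.17 and 9.51 in EGFP arrays (2.34-fold, adjusted p = 0.00162), and *Gata4* rose 2.28-fold. *Runx1* was at 12.29, 12.53 and 12.45 in FSH and 10.48 and 10.78 in EGFP arrays (3.47-fold, adjusted p = 2.07e-05), and *Giot1*, a gonadotropin-induced zinc finger repressor of the rat, rose 5.73-fold. *Nr0b1*, the orphan receptor DAX-1 that represses SF-1, was at 8.13, 7.38 and 7.90 in FSH and 10.30 and 10.50 in EGFP arrays, or 6.05-fold lower (adjusted p = 0.000131). Its relative *Nr0b2*, the repressor SHP, moved the other way, 2.85-fold higher. *Foxo1*, a forkhead factor of growth-arrested GCs, fell 2.14-fold and *Zfpm2*, a GATA cofactor, fell 2.37-fold. *Cebpb* rose 2.02-fold, but *Cebpd*, of the same family of luteal factors, fell 4.08-fold. *Nr5a2*, the liver receptor homolog, rose 2.27-fold (adjusted p = 0.0201), a call lost without EGFP replicate 2 (adjusted p = 0.133), FSH replicate 1 (0.0534) or FSH replicate 2 (0.0641).

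DNA replication genes rose in part. Of 42 measured, 17 rose and 0 fell (median 0.34), and 10 rose without EGFP replicate 1 and 11 without EGFP replicate 2. *Gmnn*, geminin, which limits licensing to once a cycle, was at 9.88, 10.15 and 10.07 in FSH and 8.24 and 8.25 in EGFP arrays (3.45-fold, adjusted p = 1.36e-05). *Mcm2*, of the helicase, missed the threshold (log2 0.44, adjusted p = 0.062) but passed with the replicate block (adjusted p = 0.0371). Of 52 mitosis genes 13 rose and 3 fell. Only 6 rose when EGFP replicate 1 was left out and also when EGFP replicate 2 was, and 1 fell without EGFP replicate 1 and 5 without FSH replicate 1, and 5 fell with the replicate block. *Kif22*, a chromosome-binding kinesin, rose 2.19-fold and *Aurka*, a spindle kinase, rose 1.67-fold. *Kif23*, a midzone kinesin of cytokinesis, was at 10.76, 10.58 and 10.96 in FSH and 11.98 and 12 in EGFP arrays, 2.34-fold lower. The proliferation markers *Mki67* and *Top2a* did not pass (adjusted p = 0.855 and 0.421). *Ccnd2*, the cyclin D that FSH induces in GCs, rose 1.93-fold (adjusted p = 0.0206), but not when EGFP replicate 1 was left out (adjusted p = 0.166), nor FSH replicate 1 (0.0575) or FSH replicate 3 (0.0518).

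Of 31 glycolysis and lactate genes 12 rose and 3 fell. *Slc2a1*, the glucose transporter GLUT1, rose 1.65-fold, *Pfkm*, a phosphofructokinase, rose 1.73-fold and *Slc16a1*, the lactate carrier MCT1, rose 1.79-fold. *Pdk4*, which shuts pyruvate dehydrogenase, was at 7.55, 8.18 and 7.85 in FSH and 11.36 and 11.30 in EGFP arrays, or 11.1-fold lower (adjusted p = 3.74e-06), and *Slc16a7*, the carrier MCT2, fell 4.53-fold. Of 55 genes of the TCA cycle and oxidative phosphorylation 5 rose and 2 fell, shares under those of all genes, and whichever array was left out 0 to 3 rose and 1 fell, and with the replicate block 3 rose and 1 fell. Of 43 antioxidant genes 21 rose and 4 fell, or 2 fell without EGFP replicate 2. *Srxn1*, sulfiredoxin, rose 3.02-fold, *Sod2*, the mitochondrial superoxide dismutase, rose 2.74-fold and *Gclc*, of glutathione synthesis, rose 2.01-fold. *Cat*, catalase, fell by 0.93 on the log2 scale (adjusted p = 0.013), a call lost without EGFP replicate 2 (adjusted p = 0.102).

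Amino acid genes were mixed, with 8 of 40 up and 6 down, and 5 up without EGFP replicate 2. *Ass1*, argininosuccinate synthase, rose 18.4-fold. *Slc6a6*, the taurine transporter, rose 6.65-fold and *Slc7a8*, a neutral amino acid exchanger, rose 3.63-fold. In a separate list of ER chaperones and stress genes, 5 of 29 rose and 1 fell (2 without FSH replicate 3), and 23 did not pass. Of this list *Ddit4*, an inhibitor of the mTOR kinase, was at 13.51, 13.43 and 12.88 in FSH and 9.45 and 9.36 in EGFP arrays, a 14.6-fold rise (adjusted p = 5.70e-06). *Herpud1*, of ER-associated degradation, rose 2.32-fold.

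Of the lists, that of actin and SRF targets had the largest share of falls. Of 31 measured, 0 rose and 27 fell (median -1.14), and 23 to 27 fell whichever single array was left out. *Cdc42ep3*, a Cdc42 effector, was at 9.16, 9.53 and 9.69 in FSH and 12.73 and 12.37 in EGFP arrays (8.49-fold lower, adjusted p = 5.74e-06). *Tagln*, transgelin, was 14.4-fold and *Tpm1*, tropomyosin, 4.61-fold lower. *Cald1*, caldesmon, was at 9.52, 9.62 and 8.93 in FSH and 13.15 and 11.93 in EGFP arrays, 9.08-fold lower, or 5.94-fold without EGFP replicate 1 and 13.8-fold without EGFP replicate 2. The smooth muscle and pericyte markers, 5 of which are also in this list, were lower in FSH arrays as given above, and their part in the count was not tested. *Srf* itself, the transcription factor, fell 1.80-fold (adjusted p = 0.000108). Of 18 YAP and TEAD genes 0 rose (1 without FSH replicate 1, and 1 with the replicate block) and 10 fell. *Cyr61*, a matricellular target, was at 9.35, 9.48 and 9.98 in FSH and 13.20 and 12.88 in EGFP arrays (10.8-fold lower, adjusted p = 1.07e-05), *Amotl2*, a YAP-binding angiomotin, fell 2.69-fold, *Tead3* fell 2.05-fold and *Ctgf* fell 1.70-fold.

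**Figure D5:**
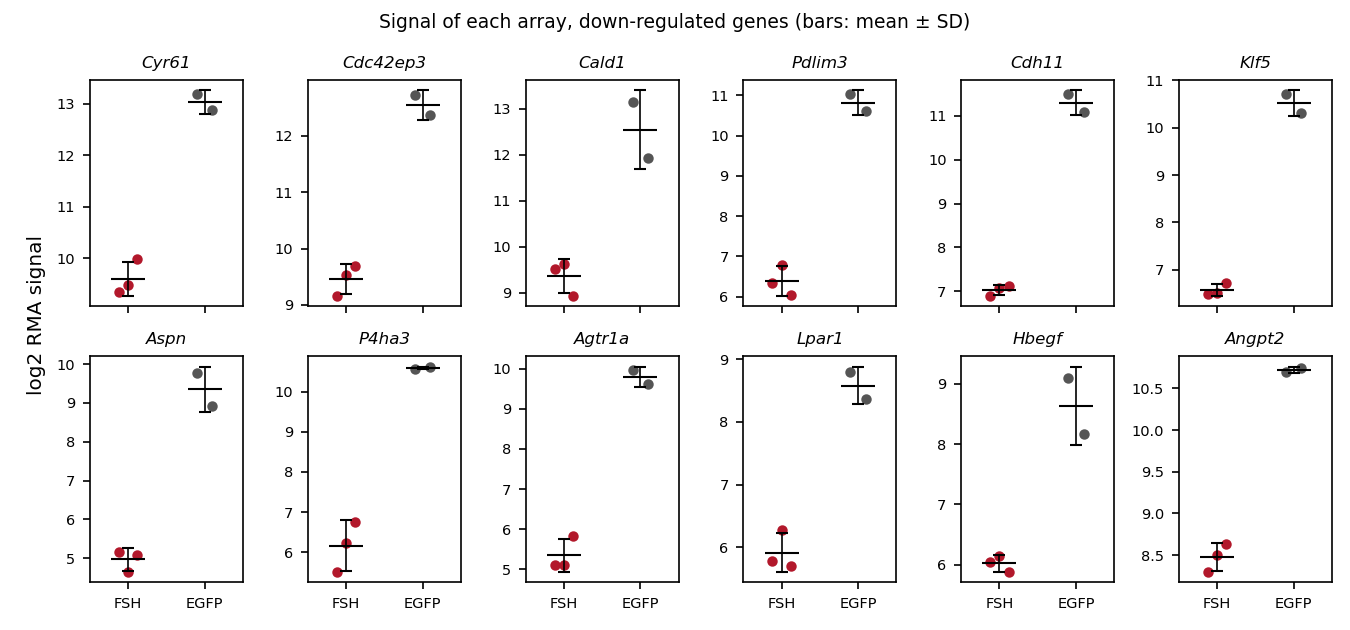
Points are the log2 RMA signals of single arrays, FSH (3 red points) left of EGFP (2 grey points), for 12 down-regulated genes, with bars at mean ± SD. Each panel has its own y axis, the groups do not overlap in any panel, and *Cald1* and *Hbegf* have the controls farthest apart beside the difference.

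Several of the 15 largest falls lay outside the lists. *Tnfrsf11b*, osteoprotegerin, a decoy receptor of the cytokine RANKL, fell furthest of all genes and was at 7.43, 7.55 and 7.30 in FSH and 13.75 and 13.10 in EGFP arrays (64.0-fold lower, adjusted p = 1.98e-06). *Pamr1* was 49.4-fold and *Anpep*, aminopeptidase N, 21.0-fold lower. *Pdlim3*, a LIM-domain protein, was at 6.34, 6.78 and 6.05 in FSH and 11.04 and 10.60 in EGFP arrays (21.6-fold lower, adjusted p = 3.74e-06), *Lmcd1*, another, at 6.40, 6.78 and 6.71 in FSH and 11.27 and 10.55 in EGFP arrays (19.5-fold lower) and *Lims2*, a focal adhesion protein, fell 18.0-fold. In each of these 6 genes the highest FSH array was below the lowest EGFP array by more than 3 log2 units. *Fam65b*, an inhibitor of the small GTPase RhoA, was at 4.72, 4.41 and 4.52 in FSH and 9.43 and 9.29 in EGFP arrays (28.1-fold lower, SE 0.10 on the log2 scale, adjusted p = 1.12e-07), and *Klf5*, a Krüppel-like factor, fell 15.2-fold.

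Of 45 interstitial matrix genes 4 rose and 20 fell (median -0.30). Beside this, the mean log2 signal of the 16 theca and stroma markers was 7.39, 7.26 and 7.24 in FSH and 7.96 and 7.73 in EGFP arrays, and its part in the count was not tested. *Aspn*, asporin, a small proteoglycan outside this list, was at 5.17, 4.64 and 5.09 in FSH and 9.76 and 8.93 in EGFP arrays. It was 20.9-fold lower (adjusted p = 9.13e-06). The member *P4ha3*, a collagen prolyl hydroxylase subunit, was at 5.50, 6.23 and 6.75 in FSH and 10.57 and 10.61 in EGFP arrays (21.5-fold lower). *Col11a1*, also a member, fell 5.83-fold. *P4ha2*, another subunit of the same enzyme, rose 1.91-fold. Of the major fibrillar collagens, *Col1a1* and *Col1a2* did not pass (adjusted p = 0.654 and 0.0828), but *Col1a2* fell with the replicate block (adjusted p = 0.00393). *Col3a1*, another of them and also a theca and stroma marker, fell by 1.86 on the log2 scale (adjusted p = 5.8e-05). Of 26 basement membrane genes 8 rose and 6 fell. *Lamb3* and *Lama4*, laminin chains, rose 3.32-fold and 2.12-fold, and *Col4a4* and *Col4a5*, chains of collagen IV, fell 4.08-fold and 2.52-fold.

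Proteases and their inhibitors were mixed, with 13 of 41 up and 8 down, or 8 up without EGFP replicate 1. *Plat* and *Plau*, the tissue and urokinase plasminogen activators, rose 4.82-fold and 2.20-fold, and *Adamts9*, a versican-cleaving protease, was at 9.22, 9.59 and 8.92 in FSH and 6.36 and 6.60 in EGFP arrays (6.78-fold). *Serping1*, the C1 inhibitor, fell 6.24-fold and *Adamts5*, an aggrecanase, fell 18.2-fold. Of 50 adhesion and junction genes 10 rose and 11 fell, or 6 fell without EGFP replicate 1. *Gjb2*, a gap junction connexin, was at 8.83, 9.44 and 8.81 in FSH and 6.24 and 6.33 in EGFP arrays, a 6.68-fold rise, while *Gja1*, the main connexin of GCs, did not pass (adjusted p = 0.388). *Cldn11*, a tight junction claudin, rose 5.11-fold. *Cdh11*, a mesenchymal cadherin, was at 6.90, 7.08 and 7.12 in FSH and 11.50 and 11.10 in EGFP arrays, 19.2-fold lower (adjusted p = 3.74e-06), and *Itga6* and *Itgb3*, integrin chains, fell 2.11-fold and 2.38-fold.

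Signals to and from vessels fell more often than they rose. Of 30 genes of vasoactive peptides and lipid mediators 3 rose and 13 fell, and of 24 of angiogenesis and hypoxia 1 rose (3 without FSH replicate 3, and 2 with the replicate block) and 8 fell. *Agtr1a*, the angiotensin II type 1 receptor, was at 5.11, 5.11 and 5.84 in FSH and 9.97 and 9.61 in EGFP arrays (21.7-fold lower, adjusted p = 3.95e-06). *Agtr2*, the type 2 receptor, fell 32.4-fold and *Lpar1*, a receptor of lysophosphatidic acid, fell 6.33-fold. *Angpt2* and *Angpt1*, the angiopoietins, fell 4.74-fold and 4.01-fold and *Adm*, adrenomedullin, fell 8.24-fold. *Vegfa*, the main angiogenic factor of the follicle, had a log2 fold change of 0.06 and did not pass (adjusted p = 0.834). *Nppc*, the peptide by which GCs hold the oocyte in meiotic arrest, was at 9.56, 9.03 and 9.44 in FSH and 6.79 and 6.84 in EGFP arrays, a 5.76-fold rise (adjusted p = 6.06e-06).

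Of 21 Notch genes 5 rose and 1 fell, and that 1 call was lost without any one array other than EGFP replicate 2. *Hey2*, a Notch target repressor, was at 9.36, 8.98 and 9.31 in FSH and 7.12 and 7.15 in EGFP arrays (4.22-fold, adjusted p = 1.34e-05), and *Notch1* rose 2.25-fold. In the Wnt list 7 of 40 rose and 5 fell, or 3 fell without EGFP replicate 1 and likewise without FSH replicate 2. These shares, 17.5% and 12.5%, stood against 13.4% and 12.1% of all genes. *Wnt4*, a ligand of ovary formation, rose 2.06-fold and *Dkk3*, a secreted Dickkopf-family protein, fell 6.03-fold. *Ctnnb1*, beta-catenin, did not pass (adjusted p = 0.922). In the insulin and IGF list 3 of 31 rose and 8 fell. *Irs1*, a docking protein of insulin and IGF receptors, fell 2.45-fold, and *Igf1* and *Igf1r* did not pass (adjusted p = 0.593 and 0.423). Of 20 clock genes 7 rose and 3 fell, with 3 risen without EGFP replicate 1 and 4 without FSH replicate 2. *Npas2*, the partner of BMAL1, was at 8.40, 7.60 and 8.30 in FSH and 5.31 and 5.32 in EGFP arrays (6.90-fold, adjusted p = 4.05e-05), *Per1* rose 2.14-fold, *Nfil3*, a clock output repressor, fell 1.94-fold and *Arntl*, BMAL1 itself, did not pass (adjusted p = 0.344).

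Of 39 growth factors for oocyte and theca 6 rose and 6 fell, or 3 fell without EGFP replicate 2. The shares were 15.4% each, against 13.4% risen and 12.1% fallen of all genes. *Fgf18*, a fibroblast growth factor, was at 5.22, 5.90 and 5.70 in FSH and 8.14 and 7.87 in EGFP arrays, 5.27-fold lower (adjusted p = 2.75e-05). *Il6r*, the interleukin-6 receptor, rose 1.76-fold. Of 32 MAP kinase and feedback genes 6 rose (18.8%) and 4 fell (12.5%), and 2 rose without EGFP replicate 2 and likewise without FSH replicate 2. *Mapkapk3*, a kinase of the stress pathway, rose 2.23-fold, and *Spry1*, a feedback inhibitor of receptor tyrosine kinases, was at 5.36, 5.55 and 5.54 in FSH and 7.05 and 6.32 in EGFP arrays, 2.30-fold lower. Of 28 genes of the BCL2 family and caspases 3 rose (10.7%) and 5 fell (17.9%), and the fewest left when 1 array was dropped were 0 risen and 2 fallen, both without EGFP replicate 1, and with the replicate block 3 fell. *Apaf1*, which activates caspases, fell 1.27-fold, and *Bcl2* did not pass (adjusted p = 0.248).

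Of 36 interferon response genes 7 rose and 2 fell, while 0 fell without EGFP replicate 1 or FSH replicate 2, 1 without PKA-CQR replicate 2 4 without EGFP replicate 2 and 5 with the replicate block. *Oasl*, an interferon-induced antiviral protein, rose 2.04-fold, while *Irf7* and *Mx1* did not pass (adjusted p = 0.773 and 0.148). *Psmb8* and *Psmb9*, catalytic subunits of the immunoproteasome, rose 1.69-fold and 1.57-fold.

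Of 30 chemokine and antigen presentation genes 11 rose and 0 fell. The mean signals of the leukocyte markers given above were also higher in FSH than in EGFP arrays, and their part in this count was not tested. *Cxcr4*, the receptor of the chemokine CXCL12, was at 9.47, 10.10 and 9.07 in FSH and 5.60 and 5.99 in EGFP arrays, a 13.5-fold rise (adjusted p = 3.80e-05), and its ligand *Cxcl12* rose 2.41-fold. *Il18*, an interleukin of the IL-1 family, was at 7.66, 7.39 and 7.90 in FSH and 5.32 and 5.92 in EGFP arrays (4.09-fold), and *Cx3cl1*, fractalkine, rose 2.36-fold. As at every called gene, the groups did not overlap for any of these 4 genes.

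The 15 largest rises also included genes outside every list. *Fam110c* was at 11.16, 11.23 and 11.30 in FSH and 5.80 and 6.12 in EGFP arrays (38.6-fold, adjusted p = 2.04e-06) and *Inmt*, a methyltransferase of indoleamines, rose 24.2-fold. *Osgin1*, a growth inhibitor induced by oxidative stress, was at 10.68, 11.31 and 10.71 in FSH and 6.66 and 6.91 in EGFP arrays (17.3-fold, adjusted p = 8.70e-06), and *Crabp2*, which carries retinoic acid, at 12.45, 12.28 and 12.49 in FSH and 8.27 and 8.85 in EGFP arrays (14.4-fold, adjusted p = 3.30e-06). A few more were singled out after their values were seen. *Mrap*, an accessory protein of melanocortin receptors, was at 12.76, 12.71 and 12.82 in FSH and 9.34 and 9.43 in EGFP arrays, a 10.4-fold rise with an SE of 0.07 on the log2 scale. *Gch1*, the first enzyme of tetrahydrobiopterin synthesis, rose 9.0-fold, and *Alas1*, the first enzyme of heme synthesis and so a source of the cofactor of cytochromes P450, rose 7.02-fold.

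Of 14 measured genes often used as references for PCR, 3 rose and 0 fell. *Tfrc*, the transferrin receptor, was at 12.08, 12.32 and 12.29 in FSH and 10.82 and 10.98 in EGFP arrays, a 2.52-fold rise (adjusted p = 3.19e-05). *Hprt1* and *Tbp* had log2 fold changes of -0.06 and 0.03 and did not pass (adjusted p = 0.632 and 0.802).

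At a few of these genes FSH was also set against PKA-CQR, a contrast in which 2.96% of all genes were higher and 3.95% lower with FSH. *Fam65b* had a log2 difference of -3.22, FSH minus PKA-CQR (SE 0.09, adjusted p = 2.01e-06), and *Crabp2* one of 1.09 (adjusted p = 0.00482). *Pgr* had a log2 difference of -1.30 (adjusted p = 0.000144) and *Ptgs2* of -1.53 (adjusted p = 0.00664), lower with FSH than with PKA-CQR although both genes rose over EGFP. For *Inha* the difference was 0.01 (SE 0.11, adjusted p = 0.981) and for *Hey2* 0.04 (SE 0.12, adjusted p = 0.936), and neither passed the test. Both contrasts use the FSH arrays and are not independent.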

How the data were processed

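Deposited values were log2 RMA signals of Affymetrix rat arrays. RMA by the authors comprises background correction, quantile normalization across arrays and probe set summary, which makes the arrays' distributions alike and dampens differences of dim genes. The RMA version and chip definition were not given in the sources used here, and the study's methods name MAS5.0 and Student's test for its own analysis. The 13915 rows with a symbol were compared, 17184 rows without one were not, and 0 columns belonged to other samples. Per the methods, 3 separate groups of GCs were each given the treatments, and controls of groups 1 and 2 served the third, so equal replicate numbers were read as one culture. Deviations from the group means of equally numbered arrays correlated at 0.235, 0.435 and 0.619 between FSH and PKA-CQR, at 0.42 and -0.271 between FSH and EGFP and at 0.131 and -0.316 between EGFP and PKA-CQR. EGFP replicate 2 correlated best with FSH replicate 3 (0.522), so its number is in doubt. The deviations of only 2 EGFP arrays are exact opposites, so each EGFP value is mirrored at the other array (-0.522 for EGFP replicate 1). These correlations therefore cannot by themselves place either control in a culture. By array code, EGFP replicate 2 (35) stood between PKA-CQR replicate 2 (34) and FSH replicate 3 (36). EGFP replicate 1 (27) stood next to FSH replicate 1 (28). The labels do not name the culture, and both placements of EGFP replicate 2 were fitted as a block. limma (3.58.1, R 4.3.3; lmFit and eBayes) was fitted to all 8 arrays, without a block, and tested on simulated data with 200 changed genes. Precision is set by the few arrays.

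The members and gene lists were chosen with earlier results of these data known. Genes were named from a rule: the marker and anchor genes, the 15 largest rises and 15 largest falls among genes whose groups did not overlap, and in each list the 5 largest called rises and falls, with members that did not pass as examples. *Mrap*, *Gch1*, *Alas1*, *Cebpb*, *Cx3cl1*, *Hmgcs1*, *Hsd17b7*, *Id3*, *Srf*, *Foxl2* and *Emr1* fall outside it and were added knowing their values. Some list members are counted but not reported here by name. Alternatives were other normalizations, filters, thresholds and models and each array left out.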

Additional observations from a re-analysis of the deposited data

How the results depend on the processing

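No call of a named gene reversed under any alternative. In the counts by gene that follow, the alternatives leave out the methods' t-test at its own unadjusted threshold. A gene removed by a filter counts there as kept. Leaving out 1 array at a time gave 1182 to 1779 risen and 1090 to 1564 fallen genes, and of 337 called genes named by the rule 255 kept their call whichever single array was left out and 113 under every alternative. The fit with the replicate block gave 1986 risen and 1800 fallen, and with EGFP replicate 2 placed with culture 3 in the replicate block it gave 2390 and 1947, and 28 of the 42 DNA replication genes rose. Of the genes named in the text, the block by replicate number changed the call of *Mcm2* and *Col1a2* only, in the contrast with EGFP. Genes that passed with EGFP replicate 2 placed with culture 3 in the block included *Amh* (adjusted p = 0.0492), *Prkaca* (0.0483) and *Mcm2* (0.00229). The methods' t-test called 212 risen and 178 fallen at their threshold (105 and 111 at least 2-fold), and 422 and 376 after Benjamini-Hochberg (186 and 210 at least 2-fold). A minimum fold of 1.2 left 735 and 812, and an adjusted p under 0.01 left 1055 and 1068. Without the genes of below-median signal, so with fewer genes tested, 247 and 267 changed at least 2-fold. With EGFP as 2 arrays, their spread rests largely on the other groups. Fitted to the FSH and EGFP arrays alone, limma called 1390 risen and 1334 fallen genes, and 2702 of the 3548 calls were kept.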
